A study of Mus musculus with 9 samples.

Results

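The genes described here are 46 genes of the skeletal muscle sarcomere, its calcium supply and its energy supply, read in bulk RNA from mouse back skin. They were taken by name from the 34637 genes of the deposited FPKM table and joined to the read counts by gene identifier. All 46 were found. Of these, 45 passed the filter on low counts and were among the 20817 genes tested, and the slow myosin heavy chain Myh7 was left out by that filter. The 46 genes lie on 14 chromosomes, and Myh3, Myh2, Myh1, Myh4 and Myh8 lie side by side in 230.3 kb of chromosome 11 (GRCm38, 67078300 to 67308634).

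All mice were C57BL/6 males aged 6 to 8 weeks with dermatitis induced by dinitrochlorobenzene (DNCB), a contact sensitizer. Every mouse received 200 μL of 1% DNCB on the back on day 1 and 100 μL of 0.5% DNCB at each challenge from day 4 to day 21. The FJDHF-M group was also fed the Fangji Dihuang formulation (FJDHF), an herbal mixture, each day after day 7 until day 28. The Model group was given water in place of the formulation. There were 4 Model libraries and 5 FJDHF-M libraries, with 74648669 to 79474215 counts each, and both groups carried the dermatitis, so the comparison is of treated with untreated lesions. The column codes are not explained in the sources used here. The 4 columns with the prefix MXL were read as Model, whose Chinese name has the initials MX, and the 5 with the prefix MR as FJDHF-M, which matches the number of deposited samples in each group. Every direction given below rests on this reading. No source says whether a library such as MR3_4 or MXL12 was pooled from several mice, so n is the number of libraries.

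Muscle fibres shorten when myosin heads on the thick filament pull on the actin of the thin filament. Calcium released from the sarcoplasmic reticulum by the ryanodine receptor binds troponin on the thin filament and allows this, and calcium pumps of the SERCA family end it. Fast and slow fibres use different genes for the same parts, and in mice a thin sheet of striated muscle, the panniculus carnosus, lies beneath the skin of the back and is often taken with a full-thickness skin sample.

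The defining genes of skeletal muscle were found at high levels in these skin libraries. FPKM, the read count scaled to transcript length and sequencing depth, allows levels to be compared between genes. By mean FPKM over the 9 libraries, the highest of the 46 genes were fast troponin T (Tnnt3, 597.8), skeletal α-actin (Acta1, 587.8) and the fast myosin light chain Mylpf (498.5). A mean above 100 FPKM was found for 14 of the genes, and a mean below 1 for 5, namely the slow or developmental genes Myh7, Myh8, Myh3, Myl3 and Tnni1. The 8 markers of heart muscle together had 4.30 to 9.55 CPM (counts scaled to a common library total), against 2425 to 33596 CPM for the 46 genes. Of these markers, the atrial peptide Nppa, Myl7, Mybpc3 and Myh6 had at most 0.816 CPM in any library, whereas Tnnt2 had 1.61 to 3.50 CPM, Nppb 0.512 to 6.66 CPM with its highest level in MXL12, and Myl4 0.280 to 3.31 CPM with its highest level in MXL_3. Smooth muscle markers, which blood vessels and hair follicle muscles express, summed to 391.6 CPM in MXL12 to 864.6 CPM in MXL_3. Of these 10 genes, 6 were highest in MXL_3, and Synm among them had 178.0 CPM there and 27.1 CPM in MXL12. The part of skeletal muscle in this sum was not tested.

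The promoters of 3 genes are shown because these genes stand for the main patterns below, namely the actin found in every fibre, the myosin of the fastest fibres that was nearly absent from MR4_5, and the slow myosin that was found mainly in MXL_3. Each is the 250 bases before the RefSeq start of the gene in GRCm38.p6, 5′ to 3′ on the gene's strand. Capitals mark every match to the letters TATAAA, to an E-box (CANNTG, the site of MyoD-type factors), to a CArG box (bound by serum response factor) or to a MEF2 box. The stretch of Acta1 is at chr8:123894776-123895025 (minus strand), Myh4 at chr11:67237562-67237811 (plus strand) and Myh7 at chr14:54994627-54994876 (minus strand).
Acta1: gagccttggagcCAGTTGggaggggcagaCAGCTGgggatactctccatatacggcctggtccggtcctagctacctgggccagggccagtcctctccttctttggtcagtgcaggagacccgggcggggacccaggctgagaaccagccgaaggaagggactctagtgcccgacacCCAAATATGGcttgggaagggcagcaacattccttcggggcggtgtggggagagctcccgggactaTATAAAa
Myh4: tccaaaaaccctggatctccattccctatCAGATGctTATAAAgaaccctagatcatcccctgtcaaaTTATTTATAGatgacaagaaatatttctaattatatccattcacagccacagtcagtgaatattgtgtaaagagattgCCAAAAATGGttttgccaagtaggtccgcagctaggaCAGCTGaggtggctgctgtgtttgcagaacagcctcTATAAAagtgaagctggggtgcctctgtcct
Myh7: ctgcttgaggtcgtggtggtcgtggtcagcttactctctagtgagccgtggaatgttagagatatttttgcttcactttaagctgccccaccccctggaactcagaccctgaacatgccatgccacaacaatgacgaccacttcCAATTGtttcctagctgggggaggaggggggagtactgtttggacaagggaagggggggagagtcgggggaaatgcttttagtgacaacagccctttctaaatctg
The Acta1 stretch holds 2 E-boxes, 1 CArG box and 1 TATAAA, and the Myh4 stretch 2 E-boxes, 1 CArG box, 1 MEF2 box and 3 TATAAA matches, of which 1 lies inside the MEF2 box on the other strand. The Myh7 stretch holds 1 E-box. The RefSeq starts lie 24 bases outside the deposited gene for Acta1, 217 bases outside for Myh4, and exactly at its edge for Myh7.

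A promoter was found in the RefSeq table for 37 of the 46 genes. Counting both strands, with overlapping matches allowed, an E-box was present in the 250 bases of 32 of these 37 (86.5%), and in 69.3% of the 27025 genes with a promoter. A CArG box was present in 5 (13.5%, against 1.62% of all), namely Myh4, Myl3, Acta1, cardiac α-actin (Actc1) and the Z-disc gene Ldb3. A MEF2 box was present in 7 (18.9%, against 3.42%), among them Myh1, Myh4, Myh8, the giant protein titin (Ttn) and parvalbumin (Pvalb). TATAAA was present in 9 (24.3%, against 14.3%). These matches are a description of the letters and not of binding, and in skin no binding was measured.

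The muscle content of the samples differed widely between libraries of the same group. The 46 genes took 0.891% of all counts in MXL1, 0.241% in MXL12, 0.568% in MXL3_4 and 3.25% in MXL_3 of the Model group. In the FJDHF-M group they took 0.730% in MR1, 1.96% in MR3, 1.73% in MR3_4, 0.601% in MR4_5 and 0.755% in MR5. MXL_3 thus held more of these transcripts than any other library and MXL12 less, and both belong to the Model group. The mean was 1.24% ± 1.37 (SD, n = 4) in Model and 1.16% ± 0.639 (SD, n = 5) in FJDHF-M. The difference of -0.082 percentage points was smaller than either SD and became 0.590 without MXL_3. In bulk RNA, fewer muscle fibres in a sample and less of these transcripts per fibre cannot be told apart.

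**Figure D1:**
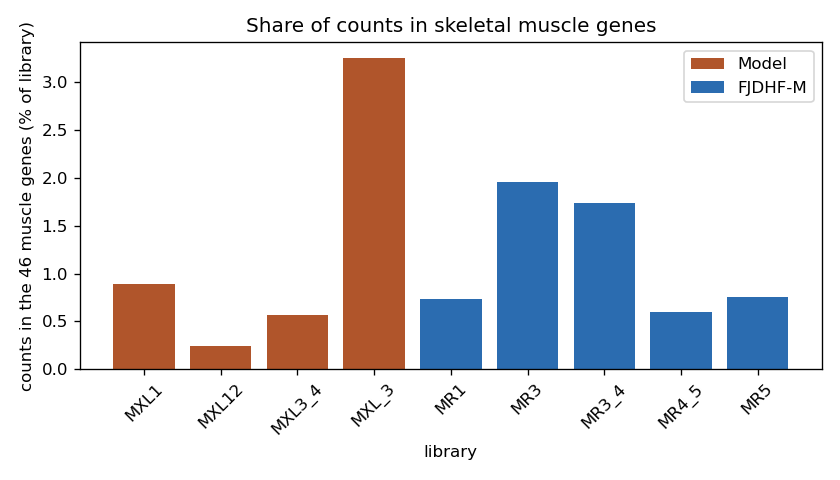
Share of all read counts (%) taken by the 46 muscle genes in each library, with 1 bar per library, coloured by group. The 4 Model libraries ran from 0.241% to 3.25% and the 5 FJDHF-M libraries from 0.601% to 1.96%, so the FJDHF-M range lay inside the Model range.

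Most single genes were highest in MXL_3 and lowest in MXL12, and their order in between varied. Acta1 stood at 808.5, 18.0, 109.2 and 1261 FPKM in MXL1, MXL12, MXL3_4 and MXL_3, and at 296.8, 1818, 784.6, 143.5 and 49.5 FPKM in MR1, MR3, MR3_4, MR4_5 and MR5. Its highest library was in FJDHF-M and its lowest in Model, and the groups overlapped. In CPM, 42 of the 46 genes were highest in MXL_3. The 4 others were Acta1 and the myosin-binding protein Mybph, which were highest in MR3, the SERCA2 calcium pump Atp2a2, and the tropomyosin Tpm3. Of the 45 tested genes, 41 (91.1%) were highest in MXL_3, where 15.5% of all tested genes were highest, and 35 (77.8%) were lowest in MXL12, where 15% of all tested genes were lowest.

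Among the 41 genes with more than 3 counts in every library, the highest library exceeded the lowest by a median of 26.9-fold in CPM, against 2.57-fold over 18771 genes with that many counts. The ratio was above 10 for 36 of the 41, whereas 8.00% of the 18771 genes reached it. It was 237-fold for Myh4, 96.8-fold for Acta1, 63.8-fold for muscle creatine kinase (Ckm) and 44.7-fold for Pvalb, the soluble calcium buffer of fast fibres. The ratio was 1.45-fold for Tpm3 and 1.56-fold for Atp2a2, 2 genes that are also expressed outside muscle, and lay between these extremes for the tropomyosin Tpm1, the calsequestrin Casq2 and sarcolipin (Sln).

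**Figure D2:**
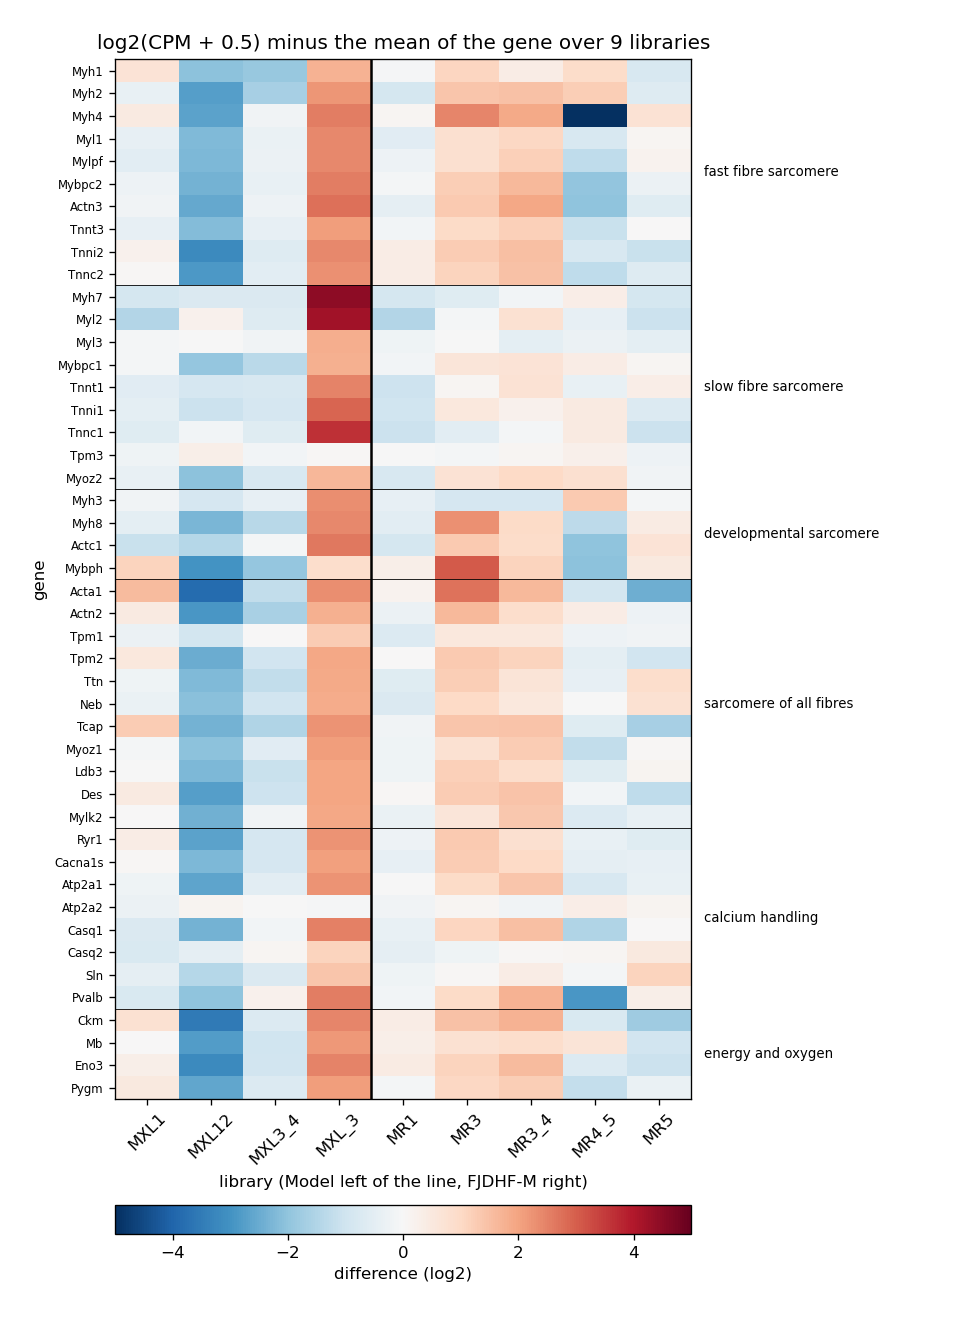
Level of each of the 46 genes in each library as log2(CPM + 0.5) minus that gene's mean over the 9 libraries, with genes ordered by role and Model libraries left of the line. MXL_3 is red and MXL12 blue for most genes, Myh4 is darkest in MR4_5, and Tpm3 and Atp2a2 are pale in every library.

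No muscle gene passed the test between the groups. In edgeR's quasi-likelihood test, with p-values adjusted over all tested genes by the Benjamini-Hochberg method, 0 of the 45 genes combined a 2-fold change with an adjusted p under 0.05, where 0 of all 20817 genes (0%) did, and the smallest adjusted p of a muscle gene was 1.00. At an unadjusted p under 0.05 there was 1 muscle gene (2.22%), lower in FJDHF-M, where 0.793% of all genes were called lower, 0.773% higher and 1.57% in either direction. DESeq2's Wald test called 0 muscle genes at either threshold, but it gave no p for Myl2, Myh3 and some others, which could not be called. Of 34637 genes, it called 12 past the adjusted threshold and the 2-fold change, and 651 (1.88%) at an unadjusted p under 0.05. At such low shares a count of 0 says little about the muscle genes. The groups did not separate in CPM for any of the 45 genes, and for 0.514% of all genes they did (0.231% higher and 0.283% lower in FJDHF-M). The log2 fold change (FJDHF-M minus Model) was below 0 for 31 of the 45 genes (68.9%), as it was for 55.9% of all genes. Its median was -0.21 over the muscle genes and -0.032 over all genes. The fold changes were poorly fixed, with a median standard error (SE) of 0.807 on the log2 scale against 0.341 over all genes.

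Leaving out MXL_3 turned this direction. The median log2 fold change then became 1.18, and 44 of the 45 genes lay above 0, with the essential light chain Myl3 as the exception, where 47.1% of all genes lay above 0. At an unadjusted p under 0.05, 8 genes were then higher in FJDHF-M, against 1.25% of all 21295 genes tested without that library (2.27% in either direction), and none passed the adjustment in edgeR's quasi-likelihood test (adjusted p 1.00 for each). These 8 were the thin-filament ruler nebulin (Neb), Ttn, the slow myosin-binding protein Mybpc1, Myh2, Myh8, Ldb3, the Z-disc protein Myoz2 and Sln. Sln was also the only tested member whose groups then no longer overlapped, where 1.69% of all genes did not overlap. Removing the Model library with the highest levels raises fold changes by itself, so this fit is no separate sign of a rise in FJDHF-M. In each other fit with 1 library left out the median stayed below 0, from -0.60 without MXL12 to -0.049 without MR5. Only 3 of 46 genes lay above 0 without MXL12, and 3 of 46 without MXL3_4.

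**Figure D3:**
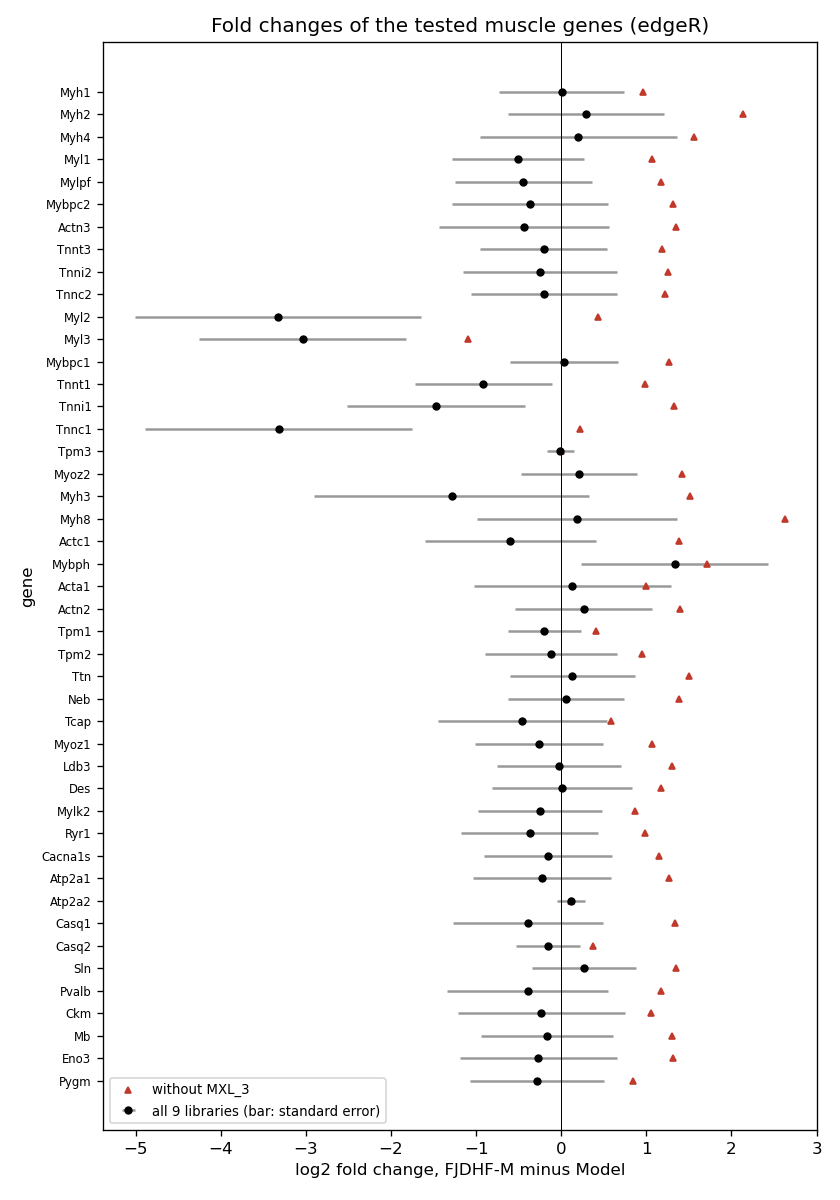
log2 fold change (FJDHF-M minus Model) of the 45 tested muscle genes from edgeR, with black points and SE bars for all 9 libraries and red triangles for the fit without MXL_3. The black points scatter around a median of -0.21, and the triangles lie above 0 for 44 of 45 genes.

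Fast fibre genes exceeded slow fibre genes in every library. The 10 fast genes summed to 284.3 to 7062 FPKM and the 9 slow genes to 49.3 to 185.5 FPKM. The sums were nearest to parity in MXL12, at 284.3 against 57.5. Of those 57.5 FPKM, however, 47.1 came from Tpm3, which is also expressed outside muscle. The 10 fast genes had a median log2 fold change of -0.23, with 3 above and 7 below 0. Mylpf, the regulatory light chain of fast myosin, stood at 239.6, 70.2, 271.9 and 1721 FPKM in the Model libraries MXL1, MXL12, MXL3_4 and MXL_3, and at 284.6, 607.8, 753.4, 145.3 and 392.2 FPKM in MR1, MR3, MR3_4, MR4_5 and MR5. The Model libraries enclosed all 5 FJDHF-M libraries (log2 fold change -0.45, SE 0.81, exact permutation p = 0.754). Tnnt3, which ties troponin to tropomyosin in fast fibres, ran from 95.7 to 1787 FPKM in Model and from 206.7 to 938.0 in FJDHF-M. Its log2 fold change was -0.21 with an SE of 0.75 (exact permutation p = 0.651). The other members of this group, the light chain Myl1, Mybpc2, Actn3 and the fast troponins Tnni2 and Tnnc2, had log2 fold changes within the range of -0.51 to 0.29 found over the 10 genes. Here and below, permutation tests were two-sided over all 126 divisions of the libraries into 4 and 5, with 0.00794 as the smallest p possible. Of the 22 genes chosen for it, 0 had an exact permutation p under 0.05.

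The myosin heavy chains of fast fibres, each the motor of 1 fibre type, differed in their mixture between libraries. Myh4, the motor of the fastest (type IIb) fibres, stood at 93.2, 10.3, 58.8 and 372.5 FPKM in MXL1, MXL12, MXL3_4 and MXL_3. In MR1, MR3, MR3_4, MR4_5 and MR5 it stood at 70.1, 371.9, 237.8, 1.70 and 113.7 FPKM. MR4_5 was thus far below every other library, with 824 counts of Myh4 where the others had 4973 to 181980. Myh1, the type IIx motor, stood at 70.6, 10.1, 11.2 and 137.3 FPKM in Model and at 40.5, 94.4, 52.6, 84.2 and 25.3 FPKM in FJDHF-M, in the same order of libraries. In Myh1, MR4_5 was the third highest library. Myh2, the type IIa motor, had 1.06 to 33.7 FPKM in Model and 4.06 to 20.9 in FJDHF-M, with 18.7 in MR4_5.

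Of the summed FPKM of the 6 heavy chains, Myh4 took 54.8%, 48.0%, 81.2% and 68.0% in the 4 Model libraries, in the order above. It took 61.1%, 76.1%, 76.4% and 78.8% in MR1, MR3, MR3_4 and MR5, and 1.62% in MR4_5. In MR4_5, Myh1 took 80.2% and Myh2 17.8%, whereas Myh1 took 15.4% to 47.0% and Myh2 3.21% to 6.53% in the other 8 libraries. The log2 fold changes were 0.20 (SE 1.16, exact permutation p = 0.968) for Myh4, 0.0028 (SE 0.73, exact permutation p = 0.468) for Myh1 and 0.29 (SE 0.92, exact permutation p = 0.317) for Myh2. These genes share sequence, and 9.24% of the 100-base stretches of Myh1, 7.80% of Myh2 and 3.85% of Myh4 occur in another gene, mostly another myosin of the cluster, so reads from them may be split between genes.

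**Figure D4:**
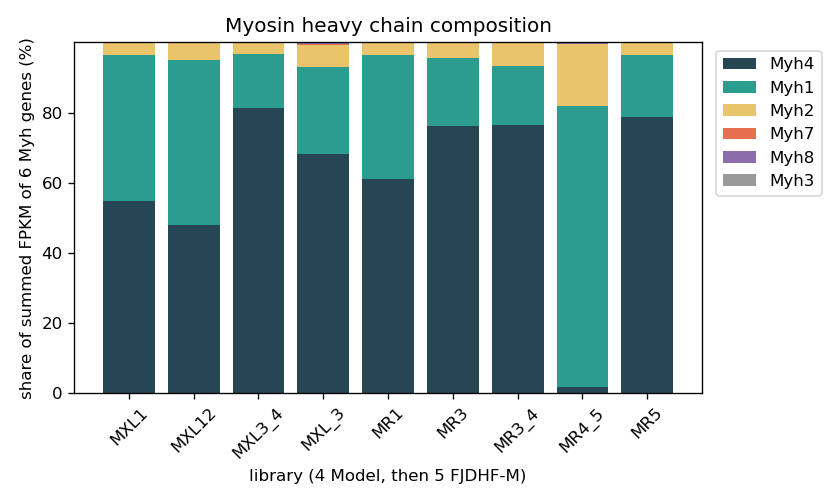
Share (%) of the summed FPKM of 6 myosin heavy chain genes in each library, with 1 stacked bar per library. Myh4 took 48.0% to 81.2% in 8 libraries and 1.62% in MR4_5, where Myh1 took 80.2%.

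Other genes stood low or high with Myh4 in MR4_5. Pvalb had 29.2 FPKM there, below the 52.5 to 1205 FPKM of the other 8 libraries, and Actc1 was also lowest there, with 0.321 FPKM against 0.614 to 14.1. Myoglobin (Mb), the oxygen store of oxidative fibres, stood at 1.08 times the level of Mylpf in MR4_5 and at 0.130 to 0.425 times in the other libraries. The summed share of the 46 genes in MR4_5, 0.601%, was the lowest of its group. It was above the shares of MXL3_4 and MXL12, which had 58.8 and 10.3 FPKM of Myh4. Relative to the median of 44 muscle genes in the same library, Myh4 departed by -4.74 on the log2 scale in MR4_5 and Pvalb by -2.35. A departure of more than 2 in either direction was found in 11 of 396 combinations of gene and library.

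Most slow fibre genes were low outside MXL_3, with Mybpc1, Myoz2 and Tpm3 as the exceptions at 37.6, 5.18 and 38.8 FPKM on average. Myh7, the motor of slow fibres and of the heart, had 1425 counts in MXL_3. It had 0, 4 and 4 counts in MXL1, MXL12 and MXL3_4, and 0, 8, 24, 51 and 0 counts in MR1, MR3, MR3_4, MR4_5 and MR5. A count of 0 allows up to 3 counts, or 0.0379 to 0.0398 CPM in these 3 libraries. The slow regulatory light chain Myl2 had 1806 counts in MXL_3 and 0 to 133 elsewhere, and slow troponin C (Tnnc1) had 920 counts there and 0 to 76 elsewhere. Slow troponin I (Tnni1) had 889 counts against 23 to 159, and slow troponin T (Tnnt1) 1458 against 97 to 402. MXL_3 thus had the most reads of these slow genes, but relative to fast genes it did not stand alone. The FPKM ratio of Tnnt1 to Tnnt3 was 0.00465 in MXL_3, 0.00690 in MXL12 and 0.00497 in MR4_5. In the same order, Tnni1 to Tnni2 was 0.00472, 0.00510 and 0.00651, and Tnnc1 to Tnnc2 was 0.0113, 0.0151 and 0.00984. The slow genes of these ratios had only 23 to 118 counts in MXL12. Myh7 departed from the median of the muscle genes by 2.25 on the log2 scale in MXL_3 and by 1.54 in MXL12. The level in MXL_3 exceeded the next library by 30.7-fold for Myh7, 13.6-fold for Myl2, 13.3-fold for Tnnc1, 10.1-fold for Myl3, 6.19-fold for Tnni1 and 3.64-fold for Tnnt1. The median of this ratio was 6.19 over the slow genes, 1.80 over the fast genes and 1.75 over the calcium genes. The heart gene Myh6, which shares sequence with 7.71% of the 100-base stretches of Myh7, had 0.82 CPM in MXL_3.

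The 3 smallest unadjusted p values of the list were those of slow genes, and all 3 rested on MXL_3. They belonged to Myl3 (log2 fold change -3.04, SE 1.22, edgeR unadjusted p = 0.0310, exact permutation p = 0.0317), Tnnc1 (log2 fold change -3.32, SE 1.57, edgeR unadjusted p = 0.0594, exact permutation p = 0.389) and Myl2 (log2 fold change -3.33, SE 1.68, edgeR unadjusted p = 0.0744, exact permutation p = 0.524). Myl3 had 13, 15, 9 and 145 counts in the 4 Model libraries and 8, 15, 0, 6 and 0 in the FJDHF-M libraries, so MR3 lay inside the Model range and the groups overlapped. Without MXL_3 the log2 fold changes were -1.09 for Myl3, 0.22 for Tnnc1 and 0.43 for Myl2. Tnnt1 had a log2 fold change of -0.91 (SE 0.80, exact permutation p = 0.929), which became 0.98 without that library. Myh7, which had no fitted fold change, gave an exact permutation p of 0.651.

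Tpm3, a tropomyosin of slow fibres and of many other cells, behaved unlike the rest of the slow genes. It had 34.0, 47.1, 34.6 and 38.3 FPKM in MXL1, MXL12, MXL3_4 and MXL_3, and 37.9, 37.0, 39.5, 47.1 and 33.4 FPKM in the FJDHF-M libraries MR1, MR3, MR3_4, MR4_5 and MR5. The 9 values spanned less than those of any other member, and MXL12, the library with the least muscle RNA, was among the highest. The log2 fold change was -0.011 (SE 0.16, exact permutation p = 0.960). A related gene, Tpm3-rs7, shares 15.8% of the 100-base stretches of Tpm3.

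Developmental sarcomere genes, which fibres use before birth and during repair, summed to 0.963 to 45.2 FPKM per library, below every other role. Embryonic myosin (Myh3) had 23, 0, 14 and 288 counts in MXL1, MXL12, MXL3_4 and MXL_3, and 14, 0, 0, 139 and 26 counts in FJDHF-M. Its highest library after MXL_3 was MR4_5 (log2 fold change -1.29, SE 1.62, exact permutation p = 0.603). Perinatal myosin (Myh8) had 132, 10, 53 and 1128 counts in Model and 122, 1152, 393, 58 and 277 in FJDHF-M, with MXL_3 and MR3 near each other at the top (log2 fold change 0.18, SE 1.18, exact permutation p = 0.492). Actc1, the actin of heart and of fetal muscle, had 0.614 to 14.1 FPKM in Model and 0.321 to 5.89 in FJDHF-M (log2 fold change -0.60, SE 1.00, exact permutation p = 1.00). Mybph had the highest fold change of the 45 genes, at 1.33 on the log2 scale, with 38.1 FPKM in MR3 and 0.340 to 9.50 FPKM in the other libraries.

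Thin-filament, Z-disc and scaffold genes used by all fibres had the median fold change nearest to 0 of the 6 roles. These 11 genes had a median log2 fold change of -0.029, with 5 above and 6 below 0. Acta1 had a log2 fold change of 0.13 (SE 1.16, exact permutation p = 0.730). Ttn, which spans the sarcomere from Z-disc to M-line, had 2.09, 0.504, 0.987 and 8.34 FPKM in Model and 1.52, 5.69, 3.51, 1.82 and 4.41 FPKM in FJDHF-M (log2 fold change 0.13, SE 0.73, exact permutation p = 0.405). All 11 genes were lowest in MXL12, and 10 were highest in MXL_3, with Acta1 as the exception.

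Genes did not keep 1 ratio to each other in every library. The FPKM ratio of Acta1 to Mylpf was 3.37, 0.257, 0.402 and 0.733 in MXL1, MXL12, MXL3_4 and MXL_3, and 1.04, 2.99, 1.04, 0.988 and 0.126 in MR1, MR3, MR3_4, MR4_5 and MR5. It was thus high in MXL1 and MR3 and low in MR5 and MXL12, in both groups alike. The ratio of Ckm to Mylpf was likewise highest in MXL1 (0.471) and lowest in MR5 (0.0494) and MXL12 (0.0785), and lay between 0.148 and 0.310 in the other 6 libraries. The ratio of Tnnt3 to Mylpf, by contrast, stayed between 1.04 and 1.42 in all 9.

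**Figure D5:**
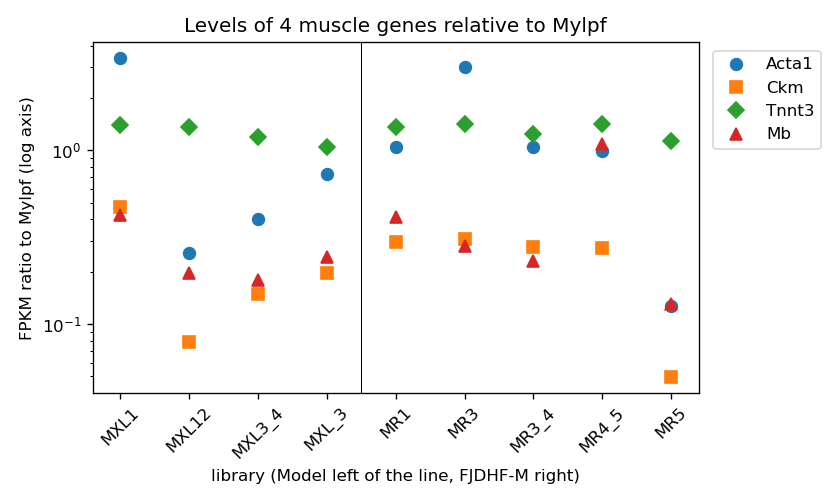
FPKM of 4 muscle genes divided by the FPKM of Mylpf in each library, on a log axis. Tnnt3 stays between 1.04 and 1.42, Acta1 runs from 0.126 in MR5 to 3.37 in MXL1, and Mb is highest in MR4_5 at 1.08.

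The calcium genes ranged between libraries to different degrees, from 1.56-fold for Atp2a2 to 44.7-fold for Pvalb in CPM. Atp2a1 (SERCA1), which pumps calcium back into the reticulum of fast fibres, stood at 163.0, 29.6, 128.0 and 844.8 FPKM in Model and at 182.8, 378.1, 462.4, 111.7 and 146.5 FPKM in FJDHF-M. The groups overlapped (log2 fold change -0.23, SE 0.81, exact permutation p = 0.627). Atp2a2 (SERCA2), the pump of slow fibres, heart and most other cells, stood at 55.6, 72.0, 64.4 and 61.5 FPKM in Model and at 58.0, 74.1, 56.7, 87.5 and 74.3 FPKM in FJDHF-M. Its log2 fold change was 0.11 with an SE of 0.16 (exact permutation p = 0.500). Atp2a2 exceeded Atp2a1 only in MXL12, at 2.44 times its FPKM, and stood at 0.0729 times in MXL_3.

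Ryr1, the calcium release channel, had 3.18, 0.356, 1.29 and 11.0 FPKM in Model and 2.00, 6.24, 4.08, 1.90 and 1.62 in FJDHF-M (log2 fold change -0.37, SE 0.80, exact permutation p = 0.698). Its voltage sensor Cacna1s had 0.948 to 19.1 FPKM in Model and 3.52 to 12.0 in FJDHF-M. The genes of calsequestrin, the calcium store of the reticulum, differed in their range. The fast form Casq1 had 10.6 to 306.2 FPKM in Model and 20.0 to 151.8 in FJDHF-M, whereas the slow and cardiac form Casq2 had 3.24 to 11.4 and 3.91 to 7.92 FPKM, with a log2 fold change of -0.15 (SE 0.37, exact permutation p = 1.00). Pvalb had a log2 fold change of -0.40 (SE 0.94, exact permutation p = 0.984). Sln, a small inhibitor of SERCA pumps, had 1.86, 0.723, 1.41 and 7.02 FPKM in Model and 2.21, 2.88, 3.37, 2.49 and 6.21 in FJDHF-M. Every FJDHF-M library lay above 3 of the 4 Model libraries and below MXL_3 (log2 fold change 0.27, SE 0.62, exact permutation p = 0.357).

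The 4 energy and oxygen genes all had log2 fold changes below 0, from -0.28 to -0.17, and all 4 were highest in MXL_3 and lowest in MXL12. Ckm, which regenerates ATP from phosphocreatine, stood at 112.8, 5.51, 40.3 and 338.3 FPKM in Model and at 84.9, 188.2, 208.5, 39.6 and 19.4 FPKM in FJDHF-M (log2 fold change -0.23, SE 0.98, exact permutation p = 0.738). Mb stood at 101.9, 13.7, 48.5 and 416.2 FPKM in Model and at 117.7, 171.2, 172.6, 157.4 and 50.9 FPKM in FJDHF-M (log2 fold change -0.17, SE 0.78, exact permutation p = 0.508). The 2 others, muscle enolase (Eno3) and muscle glycogen phosphorylase (Pygm), followed the same order at the extremes.

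Further muscle genes outside the 46 were also mostly highest in MXL_3, less so in the first of the lists below, and 0 of them passed an adjusted or an unadjusted p under 0.05 in edgeR's quasi-likelihood test. Of 25 sarcomere assembly and cytoskeleton genes, 13 were above and 12 below 0, with a median log2 fold change of 0.087, and 15 were highest in MXL_3 and all 25 lowest in MXL12. The largest values were those of the stress-responsive genes Ankrd2 (1.30) and Csrp3 (1.17). Of 20 excitation-contraction coupling genes, 3 were above and 17 below 0 (median -0.20), and 18 were highest in MXL_3 and 14 lowest in MXL12. Of 18 muscle energy genes, 3 were above and 15 below 0 (median -0.32), and 17 were highest in MXL_3 and 16 lowest in MXL12, with the fatty acid carrier Fabp3 lowest at -0.84. Of 17 myogenic regulators and satellite cell genes, 14 were tested, with 4 above and 10 below 0 (median -0.12), and 14 of the 17 were highest in MXL_3 and 8 lowest in MXL12. Among these, the factor Myog, which drives fibre formation, had the second lowest value at -1.15, after the acetylcholine receptor subunit Chrnd at -1.50.

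Genes of other skin layers also differed between libraries beside the muscle genes. The 10 keratinocyte markers summed to 16243, 5792, 8072 and 4195 CPM in MXL1, MXL12, MXL3_4 and MXL_3 and to 10088 to 19076 CPM in FJDHF-M, so MXL_3, with the most muscle RNA, had the least keratinocyte RNA, while MXL12, with the least muscle RNA, had the second least. Fibroblast markers summed to 26604 to 47303 CPM in Model and 19065 to 33915 CPM in FJDHF-M. White adipocyte markers ran from 1258 to 1890 CPM in Model and from 783.8 to 3112 CPM in FJDHF-M, brown adipocyte markers from 302.5 to 410.9 and from 172.6 to 337.1 CPM, and blood vessel markers from 412.8 to 898.7 and from 452.3 to 710.5 CPM. MXL_3 also stood apart in Ucp1, the defining gene of brown fat, with 31.2 CPM against 0.459 to 1.14 CPM in the other 8 libraries. Of the 10 brown adipocyte markers, 6 were highest in MXL_3, among them Fabp3, which is also in the muscle energy list. Their sum in MXL_3 was nevertheless the lowest of the Model group. Its largest part, Elovl3, had 91.3 CPM there and 235.3 to 312.0 CPM in the other Model libraries. The part of brown fat in the muscle or slow fibre genes of MXL_3 was not tested. What part the depth of the skin sample had in the muscle share was not tested.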

How the data were processed

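Back skin RNA was extracted with TRIzol and sequenced in pairs on an Illumina NovaSeq. The authors deposited whole read counts per gene for 55401 genes without normalization, and FPKM values for 34637 genes. The submitters' processing notes name HISAT, StringTie, DESeq2 and mm10. Whether strand was used in counting is not given in the sources used here, and exons of members such as Mybph, Tnnc2, Atp2a1, Ckm and Mb overlap genes on the opposite strand. The FPKM table also holds 9 further per-library columns headed as counts, which were not used. Groups were assigned to columns by their codes, as described above, and the mouse behind each column is not known.

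The count table was filtered with filterByExpr, scaled by TMM and tested without covariates by the quasi-likelihood F test of edgeR 4.0.16 (R 4.3.3), and p-values were adjusted by the Benjamini-Hochberg method. A gene was called at a fold of 2 or more and an adjusted p under 0.05, the study's own criteria. CPM are TMM-scaled, and 3 counts were taken as the floor (0.0375 to 0.0415 CPM), a limit that counts sampling of reads and not the copying of molecules by PCR. Levels per library are given in FPKM, which also allows genes to be compared, and tests, ranks and ratios of highest to lowest library used counts or CPM. Levels of 22 chosen genes were tested by exact permutation of log2(CPM + 0.5). On data simulated from these libraries, edgeR recovered 69.5% of 200 genes changed 4-fold among 20817, with 2.80% false calls. Each pair of libraries differed beyond the noise of counting (chi-square per degree of freedom 125.6 to 586.5). The labels number separate mice, but pooling could not be checked, so p-values measure the spread between these 9 libraries. The members and all gene lists were chosen with earlier results of these data known, so no list was given a p. Named with statistics were those 22 genes and the 3 members with the smallest unadjusted p. Others were given by range and count, and of each further muscle list at most the 2 highest and 2 lowest genes. Outside that rule, the exceptions to a count and Mybph were named after their values were seen. Alternatives were DESeq2 1.42.0 size factors and Wald test, limma 3.58.1 on log2(FPKM + 1), all genes unfiltered, other pseudocounts (0.1 for CPM), a block by shared column code, a muscle score as covariate, and leaving out each library. Promoter windows came from RefSeq (GRCm38.p6), and 100-base stretches and exon overlaps from the GENCODE annotation given as reference. Figures were drawn with matplotlib 3.10.9 in Python 3.11.15.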

Additional observations from a re-analysis of the deposited data

Results flagged for a closer look

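A library was set apart where its gap to the nearest library of its group, divided by the range of that group, exceeded Dixon's 95% critical value. This was asked of 60 combinations and was met in 9, where chance gives about 1 in 20, or 3, for items chosen beforehand. That number is only a rough guide here. Myl3 and Tnnc1 were included for their small p values in these data, and the items depend on each other. In the Model group, MXL_3 stood above the other 3 libraries on log2(CPM + 0.5) for 4 slow genes, with a ratio of 0.973 for Myh7, 0.925 for Tnnt1, 0.911 for Myl3 and 0.884 for Tnnc1. In the FJDHF-M group, MR4_5 stood apart in its myosin mixture, with a ratio of 0.770 for the low share of Myh4, 0.71005 for the high share of Myh1 and 0.785 for the high share of Myh2, 3 values that depend on each other. The ratio for Myh1 barely passed the critical value of 0.71. The FPKM ratio of Acta1 to Mylpf was far above the rest of its group in MXL1 (0.847). The FPKM ratio of Ckm to Mylpf was far below the rest of its group in MR5 (0.857).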

How the results depend on the processing

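Under every alternative 0 muscle genes passed the adjusted p and the 2-fold change. The lowest adjusted p of a named gene was 0.857. That minimum leaves out the covariate fit and the named genes to which DESeq2's Wald test gave no p. Of all genes, 12 passed with DESeq2's Wald test, 1 with the covariate and 0 under each other alternative. The count at an unadjusted p under 0.05 was 1 with DESeq2 size factors (1.59% of all genes), without a filter (2.61%) and with a muscle score of other genes as covariate (2.35%). It was 0 with the replicate block (1.35% of all genes) and with limma on the FPKM values (1.86%), and 0 to 8 when 1 library was left out. With DESeq2's Wald test, which gave no p for Myl2, Myh3 and some others, the count was also 0 (1.88% of all genes). It was 0 without MR3 (1.51% of all genes), 3 without MXL12 (1.78%), 3 without MXL3_4 (1.51%), 4 without MXL1 (3.45%) and 8 without MXL_3 (2.27%), and 1 without each of the others (1.06% to 1.90%). The median log2 fold change was -0.21 with size factors, -0.22 with the Wald test and without a filter, 0.30 with limma, 0.15 with the replicate block, -0.031 with the covariate, and -0.60 to 1.18 with 1 library left out. Over all genes, counts at an unadjusted p under 0.05 were 326 in the reported fit, 281 with the block, 905 without a filter, and 217 to 734 with 1 library left out. Groups did not overlap for 0 to 1 genes with 1 library left out, and for 0 in FPKM. The count was 1 without MXL_3, where groups did not overlap for 1.69% of all genes, and 1 without MR3 (1.24%). The difference in muscle share was -0.152 percentage points of FPKM, and -0.415 to 0.590 with 1 library left out. Of the 22 genes, 0 had an exact permutation p under 0.05 with a pseudocount of 0.1 or in FPKM.

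Signs of named genes often turned, all below the threshold. Myh1 became -0.011 with size factors, -0.0050 with the Wald test and -0.00070 without a filter. With limma on FPKM, log2 fold changes above 0 were found for Tnnt3 (0.41), Mylpf (0.33), Atp2a1 (0.54), Ryr1 (0.12), Casq2 (0.0098), Pvalb (0.0055), Ckm (0.45), Mb (0.73) and Tpm3 (0.020). With the replicate block they were found for Actc1 (0.025), Tnnt3 (0.23), Mylpf (0.085), Atp2a1 (0.27), Ryr1 (0.0044), Pvalb (0.21), Ckm (0.28), Mb (0.24) and Tpm3 (0.089). With 1 library left out, the log2 fold change ran from -0.35 to 0.96 for Myh1, -0.086 to 2.13 for Myh2, -0.37 to 1.56 for Myh4, -3.09 to 1.52 for Myh3, -0.69 to 2.63 for Myh8, -0.81 to 1.00 for Acta1, -0.97 to 1.38 for Actc1, -1.24 to 0.98 for Tnnt1, -0.57 to 1.18 for Tnnt3, -0.82 to 1.17 for Mylpf, -4.17 to 0.43 for Myl2, -0.23 to 1.50 for Ttn, -0.61 to 1.27 for Atp2a1, -0.76 to 0.98 for Ryr1, -0.37 to 0.37 for Casq2, -0.052 to 1.35 for Sln, -0.92 to 1.17 for Pvalb, -0.65 to 1.05 for Ckm, -0.55 to 1.30 for Mb, -0.080 to 0.096 for Tpm3 and -4.21 to 0.22 for Tnnc1. The upper end was the fit without MXL_3 for all of these but Tpm3. The cause was not tested. Atp2a2 (0.029 to 0.17) and Myl3 (-3.38 to -1.09) kept their sign.

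The codes 1, 3 and 3_4 occur in both groups, and libraries sharing them deviated together with r of 0.225, 0.118 and -0.219 over genes, so the numbers were not taken to pair the samples and the block gives no separate result. The large SE of the muscle genes follows their range within groups. Power at this spread was not simulated.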
